A study of Mus musculus with 12 samples.

Results

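Hes1, Hey1, Heyl, Dtx1, Nrarp and Fjx1 are 6 of the 23366 gene symbols in the deposited tables, taken by symbol as genes known to respond directly to Notch signalling. All 6 were found in each of the 3 tables, and each was read in all 12 libraries. Ligand binding to a Notch receptor lets ADAM proteases and then γ-secretase cut it, and the freed intracellular domain joins RBPJ and Mastermind-like proteins on DNA to switch target genes on. Without that domain, RBPJ holds the same genes down with corepressors that recruit HDAC3. The targets include transcriptional repressors of the Hes and Hey families and proteins that feed back on the pathway, and early T cell development in the thymus depends on the pathway.

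RNA was measured by sequencing of ribosomal RNA-depleted total RNA from Beko cells, a single mouse line of pre-T cells. All cells were cultured in the same supplemented medium, and there were 6 groups of 2 libraries. DAPT, a γ-secretase inhibitor, was given at 10 µg/ml for 24 h against DMSO, and apicidin, a histone deacetylase inhibitor, at 0.01 µg/ml for 24 h against a separate DMSO pair. Cells carrying a plasmid for a short hairpin RNA against Hdac3 (shHdac3) were compared with cells carrying a scrambled hairpin, both 96 h after puromycin. The sample descriptions name a single hairpin against Hdac3. DAPT was used to find Notch target genes, and apicidin and the hairpin to ask what HDAC3 does at them. Whether the 2 replicates of a group were grown apart is not stated, and the p-values therefore cover library-to-library spread alone, part of which may be technical.

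Library depth, in reads on genes, was 37237080 to 42815304 for DAPT and its controls, 21766984 to 29652001 for apicidin and its controls, and 24673559 to 29004315 for the hairpins. Hdac3 stood at 797 ± 31.5 normalized reads (SD, n = 2) with shHdac3 and 1971 ± 57.7 with the scrambled hairpin, so the targeted gene was lowered and not lost. All 12 pre-T cell markers examined were measured in each experiment, and their summed level was 144623 to 147847 with DAPT against 165968 to 168700 with DMSO, 88572 to 89110 with apicidin against 110648 to 110707, and 92354 to 94426 with shHdac3 against 115761 to 115993. Rag1 made up most of each drop (42119 against 61532 with DAPT, 20385 against 38609 with apicidin). Single markers went both ways: 8 fell and 4 rose with DAPT (Thy1, Tcf7, Cd247 and Bcl11b), 8 fell and 2 rose with apicidin, and 7 fell and 1 rose with shHdac3. Of the defining markers of other cell types, Ms4a1, Pax5 and Ebf1 (B cells), Ncr1 and Klrd1 (NK cells), Mcpt4 and Cma1 (mast cells), Hbb-b1, Hbb-b2 and Hba-a1 (erythroid cells) and Cdh5 (endothelium) had 0 reads in every group. Others on these lists had low levels: group means were 42.9 to 68.8 for Eomes, 20.2 to 52.2 for Nkg7 and 11.4 to 45.4 for Klf1, and Cd79a and Cd79b stayed at or below 14.4. Nkg7 (-1.33, adjusted p = 1.3e-04) and Cd79b (-2.33, adjusted p = 0.0015) fell with shHdac3. Of 6 mast cell genes, Kit and Cpa3 alone were measured, and their list summed to 3847 to 3860 with DAPT against 1478 to 1485, 1927 to 2049 with apicidin against 1612 to 1762, and 5228 to 5241 with shHdac3 against 2350 to 2455. The 6 stromal and endothelial genes summed to 5616 to 5647 against 3297 to 3483, 5042 to 5135 against 3561 to 3581, and 5282 to 5533 against 3157 to 3298, nearly all of it Pecam1 and Pdgfrb. Pecam1 rose in each experiment (1.04, 0.59 and 0.77), while Pdgfrb fell with DAPT (-0.16, adjusted p = 0.023) and rose with apicidin (0.38) and shHdac3 (0.73). Col1a2, at group means of 15.9 to 70.6, also rose in each (1.52, 0.97 and 0.95). Col1a1, likewise low, fell with shHdac3 (-1.68, adjusted p = 0.0026). The 6 myeloid genes summed to 466 to 531 against 240 to 246, 751 to 799 against 509 to 535, and 368 to 396 against 368 to 392, nearly all of it Itgam, with Lyz2, Csf1r, Cd14, Mpo and Elane below 10 in every group mean. In bulk RNA, fewer cells expressing a gene and less RNA per cell cannot be told apart, and the part of these marker shifts in the results was not tested.

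All 6 target genes fell in all 3 experiments, though the call on Hes1 with apicidin was lost when either of 2 libraries was left out. With DAPT they fell to between 12.03% (Dtx1) and 59.4% (Fjx1) of the DMSO mean, which was the lowest of the 3 values for each gene other than Fjx1. With apicidin they fell to between 31.9% (Heyl) and 84.9% (Hes1), and with shHdac3 to between 58.5% (Hes1) and 79.0% (Nrarp). The test was limma on log2(normalized reads + 1), with p-values adjusted over all genes tested and a threshold of 0.05. By that test 23.1% of the 12840 genes tested were lower with DAPT, 19.9% of 12463 with apicidin and 19.4% of 12482 with shHdac3. Over the 12204 genes tested in every experiment, 275 (2.25%) were lower in all 3, and these include the 6 target genes. The 6 genes were chosen with earlier results of these data known, so their place among the 275 is a description. In each experiment both treated libraries lay below both controls for all 6 genes, which was so for 35.5%, 34.6% and 33.6% of all genes tested. The median log2 fold change of the 6 genes was -2.05 with DAPT, -0.79 with apicidin and -0.60 with shHdac3, and that of all genes tested was 0.00 in each.

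**Figure D1:**
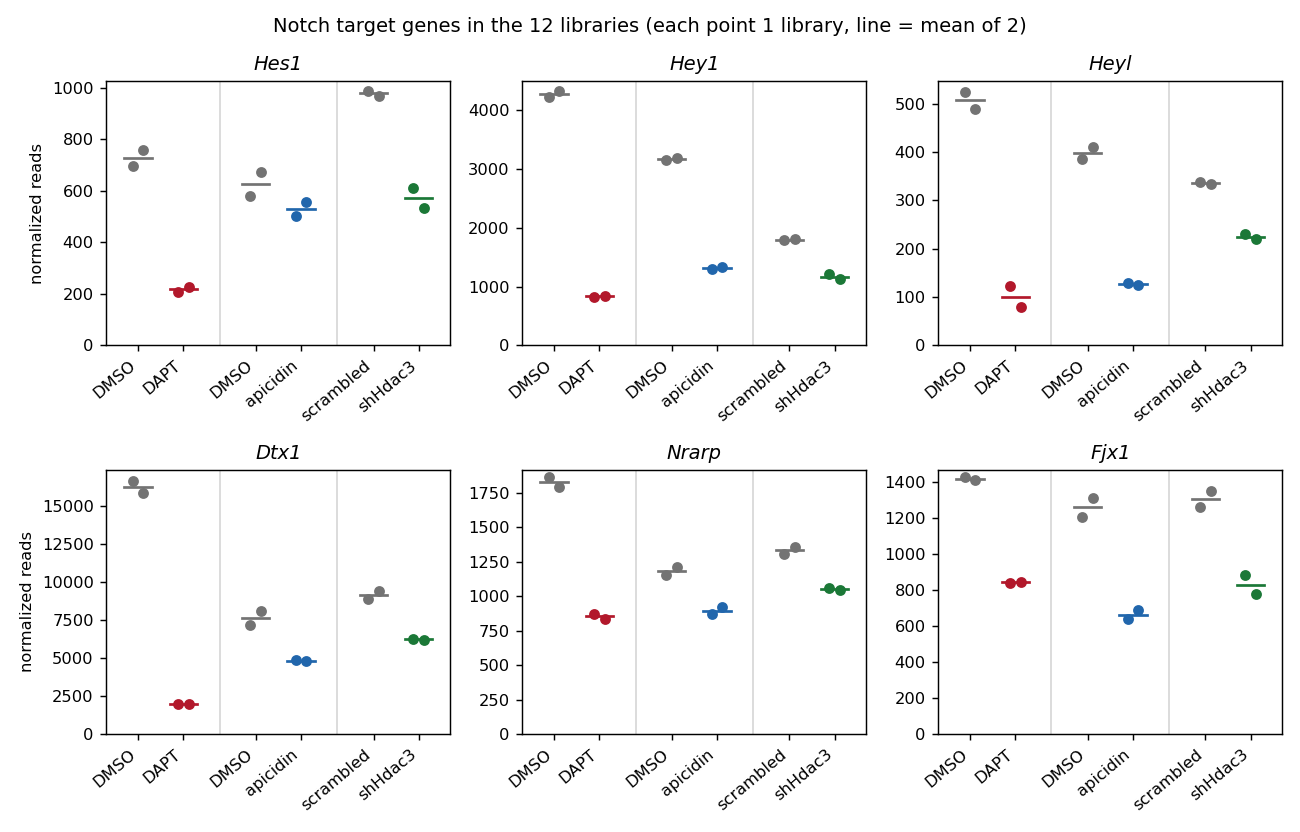
Normalized reads (y axis, from 0) of each gene in the 12 libraries, in 3 experiments separated by grey lines; each point is 1 library, the line is the mean of 2, grey is control and colour is treated. Treated points lie below control points in all 18 pairs of groups, with the smallest gap for Hes1 with apicidin (504 and 558 against 579 and 672).

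Hes1 encodes a basic helix-loop-helix repressor that acts with Groucho corepressors and also represses its own gene. Its normalized reads were 207 and 229 in the DAPT libraries and 698 and 760 in DMSO. Both DAPT libraries were far below either control, and the gene fell by 1.74 on the log2 scale (SE 0.09, adjusted p = 2.1e-13). With shHdac3 it stood at 613 and 533 against 988 and 971 with the scrambled hairpin, and fell by 0.78 (SE 0.07, adjusted p = 2.3e-13). With apicidin it stood at 504 and 558 against 579 and 672. The groups did not overlap, but the gap between them was smaller than the spread within either, and the log2 fold change was -0.23 (95% confidence interval -0.40 to -0.07, adjusted p = 0.027). Leaving out apicidin replicate 1 ended this call (-0.16, adjusted p = 0.21), as did leaving out DMSO replicate 2 (-0.13, adjusted p = 0.26). DESeq2 on the recovered reads gave an adjusted p of 0.14, and the authors' deposited table gives 0.17.

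Hey1, the Hairy/E(spl)-related repressor with the highest level of the 3 repressor genes, fell steeply with both inhibitors. It was at 826 and 837 with DAPT against 4218 and 4321 with DMSO (log2 fold change -2.36, SE 0.05, adjusted p = 4.7e-21), and at 1298 and 1334 with apicidin against 3145 and 3192 (-1.27, SE 0.04, adjusted p = 6.4e-13). With shHdac3 it was at 1216 and 1122 against 1791 and 1802 (-0.62, SE 0.05, adjusted p = 1.3e-13). The levels within each group of 2 lay close together, and the treated and control groups were far apart in every experiment.

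Heyl, a relative of Hey1, had the fewest reads of the 6 genes, 85 to 511 per library. Its normalized reads were 122 and 78.6 with DAPT against 524 and 490, so the DAPT libraries differed from each other by a larger factor than those of the other 5 genes, and the log2 fold change was -2.36 (SE 0.14, adjusted p = 6.6e-12). With apicidin they were 128 and 126 against 385 and 411 (-1.64, SE 0.11, adjusted p = 2.0e-09), the largest fall of the 6 genes in that experiment. With shHdac3 they were 229 and 219 against 338 and 334 (-0.58, SE 0.10, adjusted p = 5.6e-06).

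Dtx1 encodes Deltex, a ubiquitin ligase that binds the intracellular part of Notch. It had the largest fall with DAPT, from 16625 and 15824 in DMSO to 1959 and 1944, a log2 fold change of -3.05 (SE 0.04, adjusted p = 3.1e-24) and the 9th lowest value of the 12840 genes tested. With apicidin the levels were 4844 and 4798 against 7166 and 8074 (-0.66, SE 0.05, adjusted p = 1.6e-08), the 444th lowest of 12463. With shHdac3 they were 6272 and 6199 against 8887 and 9399 (-0.55, SE 0.05, adjusted p = 2.6e-14), the 1061st lowest of 12482. The treated libraries of each pair were within a few percent of each other, while the DMSO libraries of the apicidin experiment were further apart.

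Nrarp encodes a small ankyrin-repeat protein that binds the Notch intracellular domain with RBPJ and limits the pathway. Its level was 872 and 833 with DAPT against 1864 and 1794 with DMSO (log2 fold change -1.10, SE 0.05, adjusted p = 1.3e-13). With apicidin it was 871 and 918 against 1153 and 1211 (-0.40, SE 0.06, adjusted p = 2.0e-05), and with shHdac3 1058 and 1045 against 1309 and 1356 (-0.34, SE 0.06, adjusted p = 1.7e-06). These are falls to 46.6%, 75.6% and 79.0% of the control mean. In the GENCODE M21 annotation, 79.4% of the exonic bases of Nrarp overlap Gm38287, an antisense gene on the opposite strand. The library kit keeps strand, but the strand setting of the counting is not given in the sources used here, so reads of the pair could be mixed. None of the other 5 genes overlaps another gene's exons in that annotation.

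The 250 bases before the start of Nrarp are shown because its promoter is where a Notch complex would act. They come from RefSeq (GRCm38.p6, chr2:25180508-25180757, plus strand), and capitals mark an E-box, CACGTG, which begins 108 bases before the start and is a sequence that Hes and Hey class proteins are known to bind.
Nrarp: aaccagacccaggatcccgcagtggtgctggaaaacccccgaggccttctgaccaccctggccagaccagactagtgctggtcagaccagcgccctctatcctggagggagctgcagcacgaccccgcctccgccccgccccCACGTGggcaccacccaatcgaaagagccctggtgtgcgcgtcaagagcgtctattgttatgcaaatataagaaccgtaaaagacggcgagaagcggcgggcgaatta
On both strands, CACGTG occurs in 6.02% of the 32851 RefSeq windows of this length. The RBPJ motif GTGGGAA and its core TGGGAA, contained in it, occur in 5.42% and 21.6% of them, and neither is among the letters of the Nrarp window. The table also had an entry for Dtx1, whose window held none of the 3 motifs and lies wholly within exons of that gene in GENCODE M21. Hes1, Hey1, Heyl and Fjx1 had no entry.

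Fjx1 encodes a Golgi kinase, the relative of the fly protein Four-jointed, which in flies modifies the cadherins Fat and Dachsous. Its normalized reads were 840 and 844 with DAPT against 1428 and 1409 (log2 fold change -0.75, SE 0.05, adjusted p = 1.3e-10). With apicidin they were 638 and 688 against 1206 and 1311 (-0.92, SE 0.06, adjusted p = 3.2e-09), and with shHdac3 881 and 777 against 1263 and 1350 (-0.66, SE 0.06, adjusted p = 1.5e-12). The level after treatment was 52.7% to 63.5% of the control mean in the 3 experiments, the narrowest range among the 6 genes. Of the 6 Fat and Dachsous genes listed, 5 were in the tables and 0 reached the filter for testing.

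**Figure D2:**
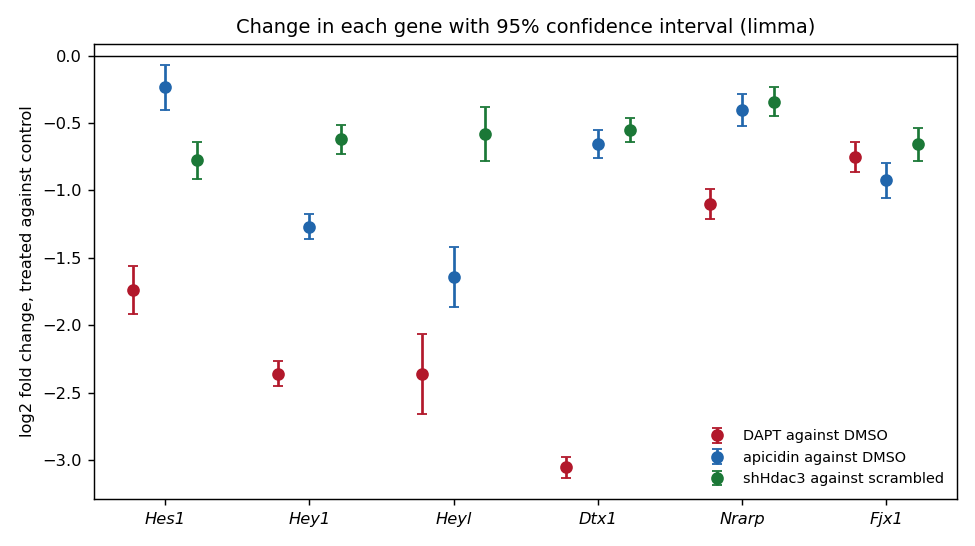
Log2 fold change (y axis, limma) of each gene in the 3 comparisons, with 95% confidence intervals. DAPT gave the lowest value for every gene other than Fjx1, whose lowest value was with apicidin (-0.92), and the shHdac3 values lie between -0.78 and -0.34.

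The order of the 6 genes differed between treatments. With DAPT it ran from Dtx1 through Heyl, Hey1, Hes1 and Nrarp to Fjx1. The log2 ratio of each gene to the next was compared between treated and control libraries, and Heyl and Hey1 were the only neighbours whose ratios overlapped. With apicidin the order was Heyl, Hey1, Fjx1, Dtx1, Nrarp and Hes1, and no neighbours overlapped. With shHdac3 it was Hes1, Fjx1, Hey1, Heyl, Dtx1 and Nrarp, and both Fjx1 with Hey1 and Heyl with Dtx1 overlapped. Hes1 thus stood last with apicidin and first with shHdac3. Neighbours were picked by their fold changes in the same libraries, and with 2 libraries per group a lack of overlap can rest on a small gap. In the hairpin experiment the log2 ratio of Hey1 to Heyl was 2.401 and 2.351 in treated libraries, beside 2.403 and 2.426 in controls. The share of other gene pairs without overlap is not given. These orders are descriptions and were not tested.

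**Figure D3:**
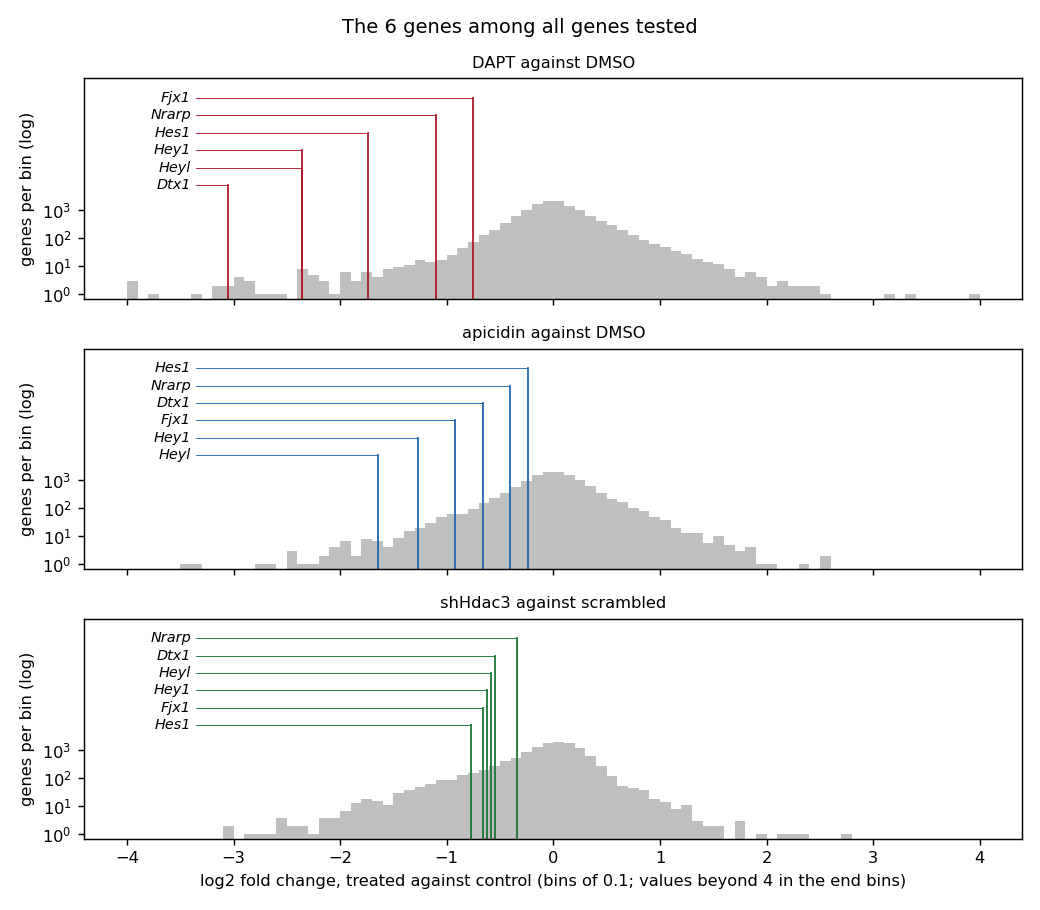
Distribution of the log2 fold change (x axis, bins of 0.1) over all genes tested in each comparison, with the number of genes on a log scale (y axis) and a line for each of the 6 genes. With DAPT the lines run from -3.05 to -0.75, in the lower tail, and with shHdac3 they lie together between -0.78 and -0.34.

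Differences between responses were tested in 1 limma fit over the 12 libraries, each response being taken against its own controls, which no 2 comparisons share. For 6 genes and 3 pairs of treatments this made 18 differences, with p-values adjusted over the 13042 genes tested. The DAPT response was lower than the apicidin response for 5 of 6 genes, where 18.8% of all genes tested passed in that direction. The difference was -2.41 for Dtx1 (95% confidence interval -2.54 to -2.27, adjusted p = 7.5e-18), -1.51 for Hes1 (-1.76 to -1.27, adjusted p = 1.1e-09) and -1.10 for Hey1 (-1.24 to -0.97, adjusted p = 9.6e-12). It was -0.71 for Nrarp (adjusted p = 7.7e-08) and -0.72 for Heyl (adjusted p = 0.0040), and the Heyl value was -0.41 (adjusted p = 0.043) without DAPT replicate 2, the library with its fewest reads. Fjx1 was the exception, at 0.16 (-0.02 to 0.34, adjusted p = 0.17), so its falls with the 2 inhibitors could not be separated at this precision.

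Against shHdac3, the DAPT response was lower for the same 5 genes, where 23.8% of all genes passed in that direction. The differences were -2.51 for Dtx1 (adjusted p = 1.5e-18), -1.78 for Heyl (adjusted p = 4.7e-08), -1.74 for Hey1 (adjusted p = 8.7e-16), -0.97 for Hes1 (adjusted p = 5.2e-07) and -0.77 for Nrarp (adjusted p = 1.0e-08). For Fjx1 it was -0.10 (95% confidence interval -0.29 to 0.08, adjusted p = 0.38).

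The responses to apicidin, a histone deacetylase inhibitor, and to shHdac3 differed at 4 of the 6 genes, and not in 1 direction. Of all genes tested, 33.4% differed in this contrast, 18.3% lower and 15.1% higher with apicidin. Hey1 and Heyl fell more with apicidin than with shHdac3, by -0.64 (95% confidence interval -0.78 to -0.51, adjusted p = 8.9e-08) and -1.06 (-1.44 to -0.67, adjusted p = 1.3e-04). Hes1 fell less with apicidin, by 0.55 (0.30 to 0.79, adjusted p = 0.0011), and this difference passed with each library left out in turn. Fjx1 differed by -0.26 (-0.45 to -0.08, adjusted p = 0.026). That call was lost without shHdac3 replicate 1 (-0.17, adjusted p = 0.17), and also without apicidin replicate 1 (0.12), DMSO replicate 2 (0.12) or scrambled replicate 1 (0.12). Dtx1 stood at -0.10 (-0.24 to 0.03, adjusted p = 0.24) and passed without DMSO replicate 1 of the apicidin experiment (-0.19, adjusted p = 0.026). Nrarp stood at -0.06 (-0.21 to 0.09, adjusted p = 0.58). The treatments also differed in length, 24 h against 96 h after puromycin. Each response is relative to its own controls, and control levels were not all alike between the experiments, as given below for each gene.

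**Figure D4:**
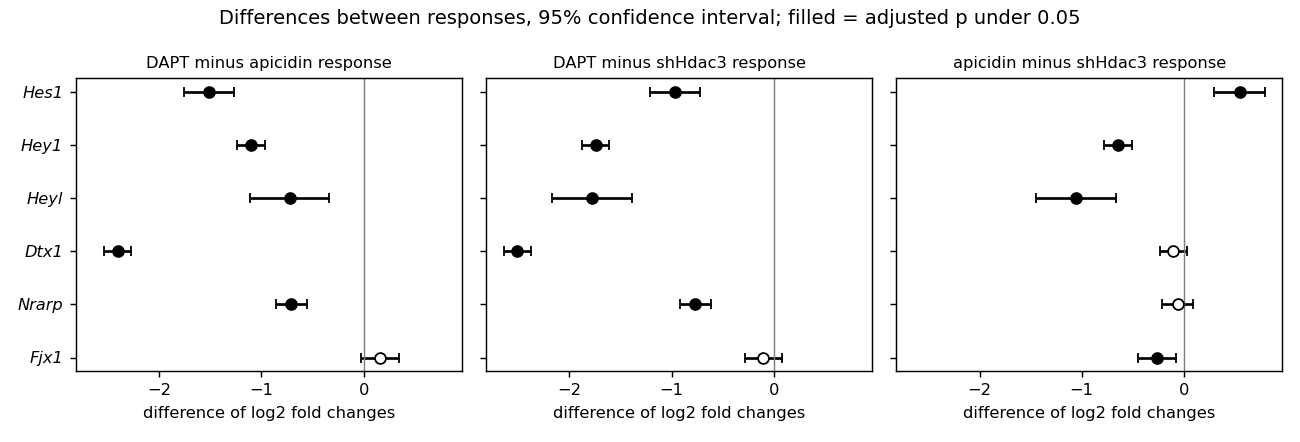
Difference of log2 fold changes (x axis) between pairs of treatments for each gene, with 95% confidence intervals; filled points have an adjusted p under 0.05. Fjx1 crosses 0 in both comparisons with DAPT, and Hes1 lies at 0.55, opposite in sign to Hey1 (-0.64) and Heyl (-1.06), in the comparison of apicidin with shHdac3.

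Levels per length were computed as RPKM, recovered reads scaled for GENCODE M21 exon length and for all reads on genes, and are given as mean ± SD of 2 libraries. In the DMSO libraries of the DAPT experiment Dtx1 was highest at 75.8 ± 2.04, followed by Hey1 (32.2 ± 0.811), Nrarp (17.4 ± 0.336), Fjx1 (11.1 ± 0.0178), Hes1 (8.81 ± 0.601) and Heyl (2.44 ± 0.0987). After DAPT the order became Dtx1 (9.33 ± 0.0206), Nrarp (8.31 ± 0.245), Fjx1 (6.77 ± 0.0435), Hey1 (6.42 ± 0.0820), Hes1 (2.69 ± 0.194) and Heyl (0.494 ± 0.149). Hey1 thus moved from place 2 to place 4 among the 6, below Nrarp and Fjx1. With apicidin Hes1 (10.8 ± 0.569) stood above Fjx1 (8.76 ± 0.307), the reverse of their order in its DMSO libraries (11.97 ± 0.963 and 15.7 ± 0.553). With shHdac3 Hey1 (13.7 ± 0.501) stood below Nrarp (15.6 ± 0.183), where the scrambled libraries had 20.9 ± 0.0963 and 19.6 ± 0.499. Neither reversal was seen in normalized reads without the length scaling, where Fjx1 stayed above Hes1 with apicidin (663 against 531) and Hey1 above Nrarp with shHdac3 (1169 against 1052). The libraries of neighbouring genes overlapped in 1 case, Hes1 and Fjx1 with shHdac3.

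The 3 control groups, from separate experiments, were not alike in every gene on levels per length. These levels are scaled by all reads on genes and not by the size factors of each experiment. Hes1 stood at 18.2 ± 0.223 with the scrambled hairpin, against 8.81 ± 0.601 and 11.97 ± 0.963 in the DMSO groups of the DAPT and apicidin experiments. Hey1 went the other way, at 20.9 ± 0.0963 against 32.2 ± 0.811 and 37.9 ± 0.504. Nrarp was at 19.6 ± 0.499, 17.4 ± 0.336 and 17.9 ± 0.196. In the same order, Dtx1 was at 65.8 ± 2.63, 75.8 ± 2.04 and 56.4 ± 3.41. Fjx1 was at 15.8 ± 0.758, 11.1 ± 0.0178 and 15.7 ± 0.553, and Heyl at 2.49 ± 0.0170, 2.44 ± 0.0987 and 3.03 ± 0.0646. After treatment, Hes1 was at 10.8 ± 0.569 with apicidin and 10.8 ± 0.842 with shHdac3, and Hey1 at 16.7 ± 0.0269 and 13.7 ± 0.501. On this scale the treated levels of Hes1 were alike. Hey1, which fell more with apicidin, ended lower with shHdac3. These differences between experiments were not tested.

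Genes with the most similar pattern were sought among the 10461 genes tested in every experiment with a mean of 50 or more in each, by the root mean square difference of log2 values from the mean of the experiment's own controls over 12 libraries. Hey1 and Heyl were nearest to each other (difference 0.21, Pearson r 0.98). After Heyl, the nearest to Hey1 were Itga9 (0.22), an integrin gene, and Arhgef10l (0.26), and after Hey1 the nearest to Heyl were Ptcra (0.30), the gene of the invariant pre-TCR chain, and Uaca (0.33). Dtx1 was nearest to Arhgef10l (0.17), Spsb4 (0.22) and Coro2a (0.28). Hes1 had Nfkb2 (0.17), an NF-κB subunit gene, Amica1 (0.19) and Rasal1 (0.20) nearest to it. Nfkb2 stood at -1.53 with DAPT, -0.14 with apicidin and -1.04 with shHdac3. For Nrarp these were Capn5 (0.082), Fam183b (0.099) and Hdgfrp3 (0.12). The pattern of Fjx1 lay nearest to Bcl7a (0.071), followed by the recombinase gene Rag1 (0.10), and Rag1 stood at -0.55, -0.92 and -0.69 in the 3 experiments. Between Fjx1 and the other 5 genes the correlation over the 12 libraries ran from 0.62 (Dtx1) to 0.85 (Heyl). The values within an experiment share their controls, so these are descriptions.

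The other genes of the Notch pathway changed in both directions. Of 83 other listed genes, 81 were in the tables. With DAPT 62 were tested, 15 fell and 19 rose (median 0.06); with apicidin 62 were tested, 17 fell and 15 rose (median 0.01); with shHdac3 61 were tested, 19 fell and 13 rose (median 0.01). Of all genes tested, 20.1%, 18.2% and 22.5% rose in the 3 experiments, beside the 23.1%, 19.9% and 19.4% that fell.

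Most Hes and Hey relatives had few or no reads. Among 9 relatives of Hes and Hey, only Hes6 and Bhlhe40 were tested. Hes2, Hes3, Hes5, Hes7, Hey2, Helt and Bhlhe41 were below the filter in every experiment. Hes6, an inhibitor of Hes1, rose with DAPT (2709 ± 8.32 against 2416 ± 101 normalized reads, log2 fold change 0.17, adjusted p = 0.0037) and fell with apicidin (-0.38, adjusted p = 6.8e-06). Bhlhe40, a basic helix-loop-helix repressor, stood at -0.09 with DAPT (adjusted p = 0.20) and fell with shHdac3 (-0.97, adjusted p = 1.6e-16). In the Deltex family, Dtx2 rose with DAPT (0.21, adjusted p = 0.011) and Dtx3l fell (-0.13, adjusted p = 0.0082), while Dtx3 stood at 0.07 and Dtx4 at -0.19 without passing. With apicidin Dtx3l fell (-0.45, adjusted p = 1.2e-06) and Dtx3 rose (0.35, adjusted p = 4.0e-04), and with shHdac3 Dtx4 fell (-0.62, adjusted p = 0.011).

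In the Groucho family, Tle3, a full-length corepressor of the kind Hes proteins recruit, fell with DAPT (-0.76, adjusted p = 7.1e-14). Aes, a short member known to antagonize the full-length proteins, rose (0.77, adjusted p = 9.9e-13). With apicidin they again fell and rose, Tle3 at -0.16 (adjusted p = 0.015) and Aes at 0.30 (adjusted p = 1.2e-04), and the low-level gene Tle4 rose (1.45, adjusted p = 0.0090). With shHdac3 neither of the 2 tested passed, Tle3 at -0.01 (adjusted p = 0.84) and Aes at 0.06 (adjusted p = 0.32). Among the receptors, Notch1 and Notch3 fell in all 3 experiments and Notch2 passed in none. Notch3 stood at -0.89, -0.80 and -0.81 with DAPT, apicidin and shHdac3, and Notch1 at -1.27, -0.63 and -0.30. Notch4 fell with shHdac3 (-0.73, adjusted p = 0.019). Of 5 ligand genes, Jag2 alone was tested: it was at 0.22 with DAPT (adjusted p = 0.13) and fell with apicidin (-0.39, adjusted p = 0.018) and shHdac3 (-1.20, adjusted p = 3.9e-09).

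Among genes of the RBPJ transcription complex, Rbpj, the DNA-binding subunit, stood at 0.04 with DAPT (adjusted p = 0.50) and 0.05 with apicidin (adjusted p = 0.45), and rose with shHdac3 (0.17, adjusted p = 0.0044). Of 8 genes of the complex, 4 rose and 1 fell with DAPT, 2 fell with apicidin, and 2 rose and 2 fell with shHdac3. The acetyltransferase gene Kat2b rose with DAPT (0.16) and fell with apicidin (-0.67) and shHdac3 (-0.31). Of 8 RBPJ corepressor genes tested, 1 rose with DAPT, 2 rose and 1 fell with apicidin, and 3 rose and 3 fell with shHdac3, the last count including Hdac3 itself. Of 8 protease genes, 4 rose with DAPT, among them Adam10 (0.32, adjusted p = 8.6e-07). With apicidin 3 rose and 2 fell, and with shHdac3 2 rose and 2 fell.

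Glycosyltransferase genes, which modify the receptor, went both ways with DAPT. Of 5 tested, 2 rose, among them Lfng (0.79), and Mfng (-0.48) and Poglut1 (-0.33) fell. With apicidin Mfng fell (-0.17), and with shHdac3 Rfng (0.39) and Mfng (0.13) rose. Of 7 genes of Notch turnover, Ccnc (-0.30) and Cdk8 (-0.20), which encode a cyclin and kinase that phosphorylate the Notch intracellular domain, fell with DAPT. With apicidin 2 rose, among them Ccnc (0.36), and 1 fell, and with shHdac3 Cdk8 alone rose (0.30) and 2 fell. The 12 other Notch-dependent T cell genes split with DAPT, 6 falling and 5 rising. Ptcra (-2.32), Il2ra (-1.78) and Lef1 (-0.99) had the largest changes. With apicidin 4 fell and 5 rose and with shHdac3 4 fell and 3 rose, and Ptcra (-1.67 and -1.23) changed most in both.

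**Figure D5:**
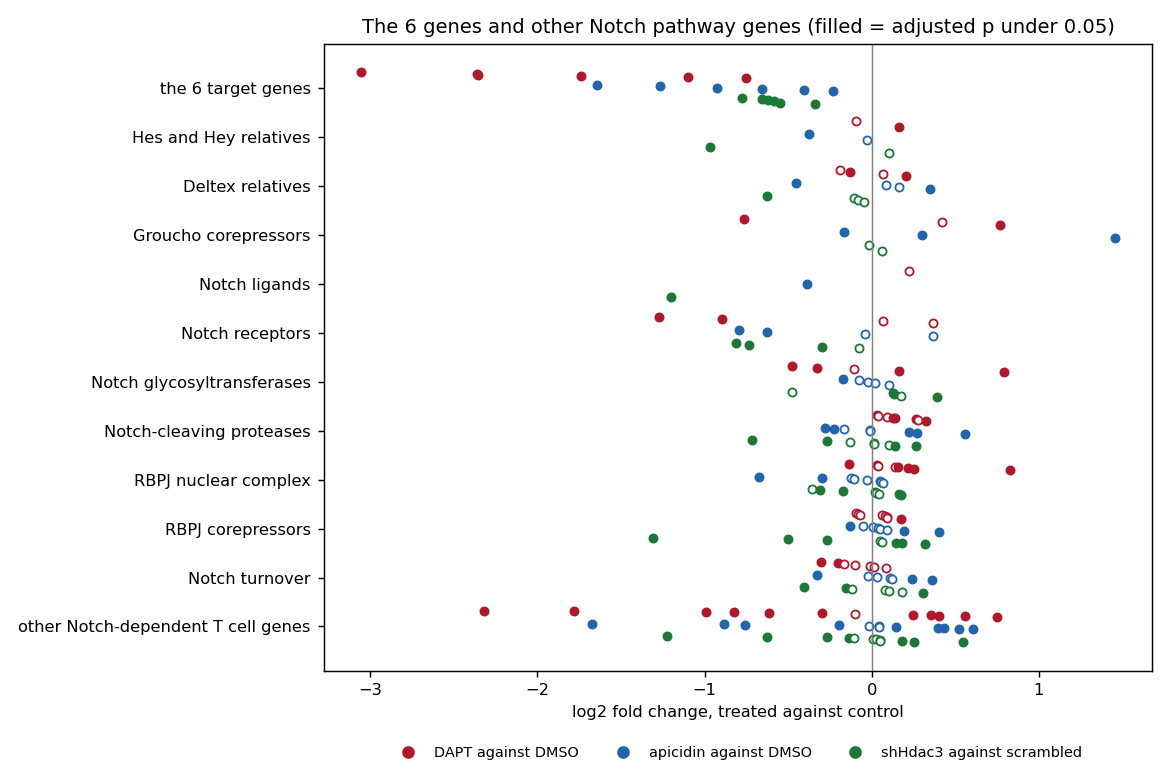
Log2 fold change (x axis) of the 6 target genes and of each tested gene of the other Notch pathway lists (rows), 1 point per gene and comparison; filled points have an adjusted p under 0.05. The top row lies wholly below 0 in each comparison, whereas rows such as the proteases and the RBPJ complex lie on both sides of 0.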

How the data were processed

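The authors deposited 3 tables, 1 per experiment. Per the file headers each holds, for 4 libraries, a normalized signal per gene symbol, with a mean, a log2 fold change, a test score and p-values with adjusted p-values. Per the submitters' processing notes, the build was mm9 and the tools were FastQC, Bowtie2, TopHat and DESeq2; their roles, the read counter and its annotation were not given in the sources used here. In every library 100% of the deposited signal values were whole multiples of the value of a single read, within a relative tolerance of 1e-06, so each is a read number over a library-wide size factor and the reads could be recovered. The number of per-library columns without a sample was 0.

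The main test was limma (3.58.1, R 4.3.3) run with its trend option, two-sided, on log2(value + 1) of an experiment's own 4 libraries. Genes needed 10 normalized reads in 2 of the 4 libraries, with Benjamini-Hochberg adjustment. The pseudocount understates changes of low genes. Differences between responses used the 12 libraries with recomputed size factors. Alternatives were edgeR (4.0.16) and DESeq2 (1.42.0) on recovered reads, other scalings, filters and pseudocounts, left-out libraries and a replicate block. Scripts were tested on simulated data. The genes and lists were chosen with earlier results of these data known. All 6 target genes and measured relatives may be named, from each other list up to 3 genes with the largest change that passed, and the 3 genes nearest to each target gene. Not every gene that this rule names is reported here. Notch2 is named outside this rule, after its values were seen. Lengths and overlaps are from GENCODE M21 (GRCm38), which is not the annotation of the counting.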

Additional observations from a re-analysis of the deposited data

How the results depend on the processing

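Of 270 fold changes and response differences of the 6 genes under other settings, 268 kept their direction and their side of the threshold, and of 288 with 1 library left out, 281 did. None of these values reversed. For part of them this was fixed in advance. Other filters and the replicate block leave a fold change as it is. Leaving out a library of the third experiment likewise leaves a response difference as it is. The number of the 6 genes past the threshold ranged from 5 to 6 with apicidin, and from 3 to 5 for apicidin minus shHdac3, over left-out libraries. With apicidin, Hes1 was no longer past the threshold by DESeq2 (-0.24, adjusted p = 0.14) or in the authors' deposited table (-0.24, adjusted p = 0.17), and ranged from -0.34 to -0.13 over left-out libraries; the cause was not tested. The apicidin minus shHdac3 difference ranged from -0.35 to -0.17 for Fjx1, past the threshold in the full fit, and from -0.19 to -0.018 for Dtx1, not past it there. DESeq2 called 3937 genes with DAPT, 2659 with apicidin and 3088 with shHdac3, against 5546, 4746 and 5228 by limma. With the replicate number as a block, 6 of 6 target genes passed in each experiment, no call on them changed, and the genes called numbered 5978, 4811 and 5327 for DAPT, apicidin and shHdac3 against 5546, 4746 and 5228. Deviations of same-numbered libraries correlated at 0.019, 0.039 and 0.011, so the numbers were not taken to pair libraries. Where a group had 1 library left, that library was assumed to vary like the others. Without the length scaling, places by level moved in 4 of the 6 groups, for Hes1, Hey1, Nrarp or Fjx1. Depth limits Heyl most, at 85 reads in its lowest library.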
